A study of Mus musculus with 8 samples.

Results

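The BCL2 family decides at the mitochondrion whether a cell lives or dies by apoptosis, and 10 of its genes were followed here in mouse MLL-AF9 cells in which Cre was induced to delete Runx1 and Cbfb, and in their controls. They are the survival genes Bcl2, Bcl2l1, Bcl2l2 and Mcl1, the pore-forming genes Bak1 and Bok, and the BH3-only death genes Bcl2l11, Bid, Bad and Bmf. They were chosen by name: a probe set counted as a member's when the platform annotation gave that member as its only gene symbol. Each of the 10 genes had 1 such probe set, so no choice between probe sets arose, and they are 10 of 19938 genes on the array that have a probe set of their own.

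The cells were c-Kit-positive bone marrow cells of mice with floxed alleles of Runx1, whose protein binds DNA and directs blood cell development, and of Cbfb, whose protein strengthens that binding. They had been transduced with the leukaemia fusion MLL-AF9 and with CreERT2, a Cre recombinase switched on by 4-hydroxytamoxifen (4OHT) and carried with puromycin resistance, and had been replated under puromycin. Control cultures received ethanol, while those labelled deleted received 1 µM 4OHT. Collection followed at 24 h, from cytokine-rich M3434 methylcellulose. There were 2 clones with 2 biological replicates each, giving 8 arrays. They form 4 sets, each pairing a control array with the array labelled deleted that shares its clone and replicate number. Floxed alleles, MLL-AF9 and CreERT2 were common to all 8 cultures. No culture received 4OHT without the floxed genes, so deletion and the action of 4OHT and active Cre cannot be told apart here.

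Values are log2 levels per probe set, and array medians lay between 6.26 and 6.39. Levels of different probe sets are not on a common scale, so changes are compared within a gene, and marker levels are only a rough guide to cell type. The cells carried the markers of their label: in control arrays the granule genes Elane, Mpo and Ctsg stood at 13.33, 13.06 and 13.00, and the MLL fusion program genes Pbx3, Hoxa9 and Hoxa10 at 11.40, 11.02 and 10.52. Markers of other lineages were mixed. Control means lay under the lower quartile of genes for 3 of 6 B cell and 2 of 6 T cell markers. The same held for 2 of 4 megakaryocyte, 3 of 7 mast cell and basophil, 2 of 7 macrophage and 0 of 4 erythroid markers. That quartile lay between 5.16 and 5.41 across arrays. Dim examples, chosen after their values were seen, were B cell Ms4a1 (4.27), T cell Cd3g (4.55), mast cell Fcer1a (4.30) and megakaryocyte Pf4 (4.52). Brighter ones reached 7.96 for B cell Cd79b, 8.51 for the basophil protease gene Mcpt8 and 8.89 for macrophage Cd68. Against the label, the Runx1 probe set gave more signal in arrays labelled deleted, by 0.52 ± 0.04 on the log2 scale (SE over 4 sets; adjusted p = 1.64e-05 in limma). Cbfb stood at -0.18 ± 0.05 (limma adjusted p = 0.128). Where the probes lie relative to the floxed exons was not analysed here, so the loss of either gene was not checked and the cultures are called labelled deleted throughout. Over all genes, 190 of 19938 passed an adjusted p of 0.05 in the fit with the set as a block (0.953% of the genes tested), 96 higher (0.481%) and 94 lower (0.471%).

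In this family the survival proteins BCL2, BCL-XL (from Bcl2l1), BCL-W (from Bcl2l2) and MCL1 bind and restrain their death-promoting relatives. BAK, BAX and BOK can form pores in the outer mitochondrial membrane, through which cytochrome c escapes to start the caspase cascade. BH3-only proteins such as BIM (from Bcl2l11), BID, BAD and BMF sense stress and either occupy the survival proteins or activate the pore formers directly. MCL1 is needed by blood stem cells and myeloid progenitors, and BCL2 is the target of drugs used against myeloid leukaemia. Much control of the family acts on protein stability, cleavage, phosphorylation and location, which an RNA array does not see.

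Of the 10 genes, 1 passed the test, where 0.953% of all genes did. Bcl2 was 1.24-fold lower in the arrays labelled deleted (limma adjusted p = 0.0429), a call that ended in 10 of 17 alternative fits. The 3 other survival genes and both pore formers did not pass. Among the BH3-only genes Bid came closest, 1.12-fold higher in the arrays labelled deleted, without passing. The members' median log2 difference was 0.04, against 0.00 over all genes tested, and their median absolute difference was 0.06 against 0.04. Of the members, 4 had the same sign in 4 of 4 sets, 3 of them above 0 and 1 below, and over all genes 13.1% did. The level in each array is plotted by gene.

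**Figure D1:**
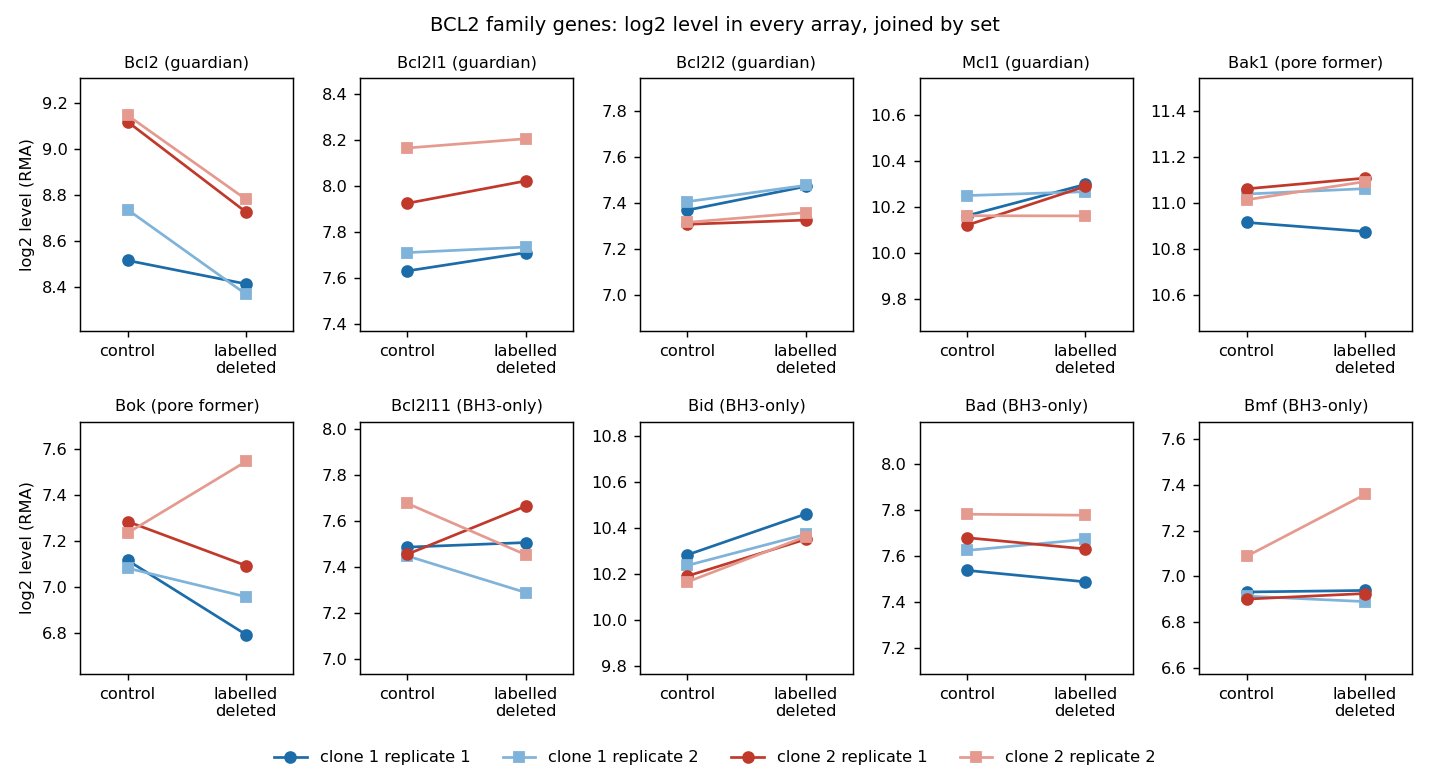
Log2 level of each BCL2 family gene in the 8 arrays, with control on the left and labelled deleted on the right of each panel; lines join the arrays of a set, blue for clone 1 and red for clone 2, and every panel spans the same log2 range. Bcl2 goes down in all 4 sets, and Bid, Bcl2l1 and Bcl2l2 go up in all 4, while the other 6 genes have lines in both directions.

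Bcl2 encodes the founding survival protein of the family. Its control levels were 8.52 and 8.74 in clone 1 (replicates 1 and 2) and 9.12 and 9.15 in clone 2, and its levels in the arrays labelled deleted were 8.41, 8.37, 8.73 and 8.78 in the same order. Every array labelled deleted lay below the control array of its own set, but the groups overlapped, because clone 1 control arrays were as low as the clone 2 arrays labelled deleted. The set differences were -0.10 and -0.37 in clone 1 and -0.39 and -0.37 in clone 2, so 3 sets were close together and clone 1, replicate 1 changed least. Control arrays averaged 8.88 ± 0.31 (SD, n = 4), and those labelled deleted 8.57 ± 0.21 (SD, n = 4). The fitted log2 difference was -0.31 ± 0.06 (SE, n = 4 sets; limma adjusted p = 0.0429), a level 19.2% lower, with a 95% interval of 0.734-fold to 0.890-fold. The SD of the 4 set differences was 0.14. The exact sign-flip permutation test of these 4 differences gave a two-sided p of 0.125, the smallest that 4 sets allow.

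The Bcl2 call lay near its threshold and ended in 10 of 17 alternative fits, while the sign was negative in all 17. Without the pairing of sets the adjusted p was 1.00 at the same log2 difference of -0.31, without the set of clone 1, replicate 2 it was 0.330, and without that of clone 2, replicate 1 it was 0.279. In bulk cultures fewer cells with the transcript and less transcript per cell cannot be told apart.

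The sequence upstream of Bcl2 is shown because Bcl2 was the member that passed and because the genes targeted in this study encode the subunits of a factor that binds the hexamers TGTGGT and TGCGGT. Both strands of the 250 bases before each annotated start were searched, in RefSeq windows of GRCm38.p6, all 10 members having at least 1 window and 16 in all. In the Bcl2 window below, capitals mark GC boxes, the letters GGGCGG on either strand, of which it held 7. No RUNX hexamer was among its letters, which says nothing of binding elsewhere in the gene.
Bcl2, chr1:106714291-106714540, minus strand: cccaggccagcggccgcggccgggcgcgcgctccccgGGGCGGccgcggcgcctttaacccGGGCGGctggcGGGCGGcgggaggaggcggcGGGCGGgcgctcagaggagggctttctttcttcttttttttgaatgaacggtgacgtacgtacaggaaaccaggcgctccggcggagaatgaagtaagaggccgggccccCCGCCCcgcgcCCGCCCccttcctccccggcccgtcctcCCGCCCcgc

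RUNX hexamers were found upstream of 3 members, Bak1, Bcl2l11 and Bmf, none of which passed the test. They were in 4 of the 16 member windows (25%) and in 18.6% of all 32851 windows of the same length, and GC boxes were in 8 of 16 (50%) and in 32.7% of all. The matches are shown with their flanks, 5′ to 3′ on the gene's strand, with capitals marking the hexamer or its reverse complement (ACCACA or ACCGCA). They begin 221 bases before the start of Bak1, 30 and 211 before different starts of Bcl2l11, and 167 and 72 before the same start of Bmf. The last run holds a further match, 67 bases before that start, which shares 1 base with it. A match is a description of letters, not evidence of a bound site.
Bak1, chr17:27028831-27028860, minus strand: tttgttgttgtcTGTGGTttgcttttcact
Bcl2l11, chr2:128125996-128126025, plus strand: gggggctcaactACCGCAgagtctcaagag
Bcl2l11, chr2:128127352-128127381, plus strand: tccagccggagcTGCGGTggccggcacagt
Bmf, chr2:118547749-118547778, minus strand: tccagattaaccTGTGGTgagcaggcagct
Bmf, chr2:118547654-118547683, minus strand: caggacacactcACCACACCACAgagcctg

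The other survival genes leaned the other way by small amounts and none passed. Bcl2l1, whose long isoform BCL-XL protects and whose short isoform promotes death, stood at 7.63 and 7.71 in clone 1 control arrays and 7.93 and 8.17 in those of clone 2. The arrays labelled deleted stood at 7.71, 7.74, 8.02 and 8.21 in the same order. Each was above its own control, by 0.08, 0.02, 0.10 and 0.04, and the spread between clones was far wider than the change. The fitted difference was 0.06 ± 0.07 (SE, n = 4 sets; limma adjusted p = 1.00), and its 95% interval ran from 0.945-fold to 1.15-fold. The probe set averages exons, so the isoforms cannot be told apart.

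Mcl1 encodes a short-lived survival protein on which myeloid progenitors depend. Its control levels were 10.16, 10.25, 10.12 and 10.16 (clone 1 replicates 1 and 2, then clone 2 replicates 1 and 2), and its levels in the arrays labelled deleted were 10.30, 10.27, 10.29 and 10.16. The groups overlapped, and the change lay in the sets of replicate number 1, at 0.14 and 0.17, against 0.02 and -0.00 in those of replicate number 2. The fitted difference was 0.08 ± 0.04 (SE, n = 4 sets; limma adjusted p = 0.931). Bcl2l2, which encodes BCL-W, ranged from 7.31 to 7.41 in control arrays and from 7.33 to 7.48 in the arrays labelled deleted. Its set differences were all above 0, between 0.02 and 0.10, and the fitted difference was 0.06 ± 0.07 (SE, n = 4 sets; limma adjusted p = 1.00). For Mcl1 the 95% interval reached 1.13-fold and for Bcl2l2 1.16-fold, so larger rises are outside these intervals.

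The pore formers did not pass. Bak1, which encodes BAK, stood at 10.92, 11.04, 11.06 and 11.01 in control arrays and at 10.88, 11.06, 11.11 and 11.09 in the arrays labelled deleted, in the same order. It had the narrowest interval of the 10 genes, from 0.969-fold to 1.07-fold around a log2 difference of 0.03 ± 0.03 (SE, n = 4 sets; limma adjusted p = 1.00). Bok encodes a relative of BAK that is held low by protein turnover. Its control levels were 7.11, 7.08, 7.28 and 7.23, and its levels in the arrays labelled deleted were 6.79, 6.96, 7.09 and 7.55. The array labelled deleted was lower in 3 sets, by up to 0.32, and higher by 0.31 in clone 2, replicate 2, which alone exceeded every control array. The fitted difference of -0.08 ± 0.10 (SE, n = 4 sets; limma adjusted p = 1.00) therefore averages opposite movements.

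Among the BH3-only genes, Bid was the most even across sets. Bid encodes a protein that caspase-8 cleaves to carry death-receptor signals to the mitochondrion. Its control levels were 10.28, 10.24, 10.19 and 10.16, and its levels in the arrays labelled deleted were 10.46, 10.37, 10.35 and 10.36. Every array labelled deleted lay above every control array. The 2 groups did not overlap, counting either direction, for 1 of the 10 members and for 1.17% of all genes. The set differences were 0.18, 0.14, 0.16 and 0.20, with an SD of 0.03. The fitted difference was 0.17 ± 0.04 (SE, n = 4 sets), or 1.12-fold with a 95% interval of 1.06-fold to 1.19-fold, and it missed the threshold over all genes (limma adjusted p = 0.0671). Bid passed in 3 of 17 alternative fits: with array weights (0.0249), with genes at or above the median level only (0.0460) and without the set of clone 2, replicate 2 (0.0423).

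Bcl2l11 encodes BIM, a direct activator of the pore formers that is controlled strongly at the transcript level by growth factor withdrawal. Its control levels were 7.48, 7.45, 7.45 and 7.67, and its levels in the arrays labelled deleted were 7.50, 7.29, 7.66 and 7.45. The set differences were 0.02 and 0.21 for replicate number 1 and -0.16 and -0.22 for replicate number 2, and the fitted difference was -0.04 ± 0.08 (SE, n = 4 sets; limma adjusted p = 1.00). Its sign turned in 3 of 17 alternative fits. Bmf, a BH3-only gene linked to loss of attachment and growth signals, stayed between 6.89 and 6.94 in 6 arrays, and the set of clone 2, replicate 2 stood apart at 7.09 in control and 7.36 in the array labelled deleted. The fitted difference was 0.07 ± 0.08 (SE, n = 4 sets; limma adjusted p = 1.00), and only that set moved by more than 0.03. Bad, whose protein is silenced by survival kinases, ranged from 7.54 to 7.78 in control arrays and from 7.49 to 7.78 in the arrays labelled deleted. Its difference was -0.01 ± 0.07 (SE, n = 4 sets; limma adjusted p = 1.00).

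**Figure D2:**
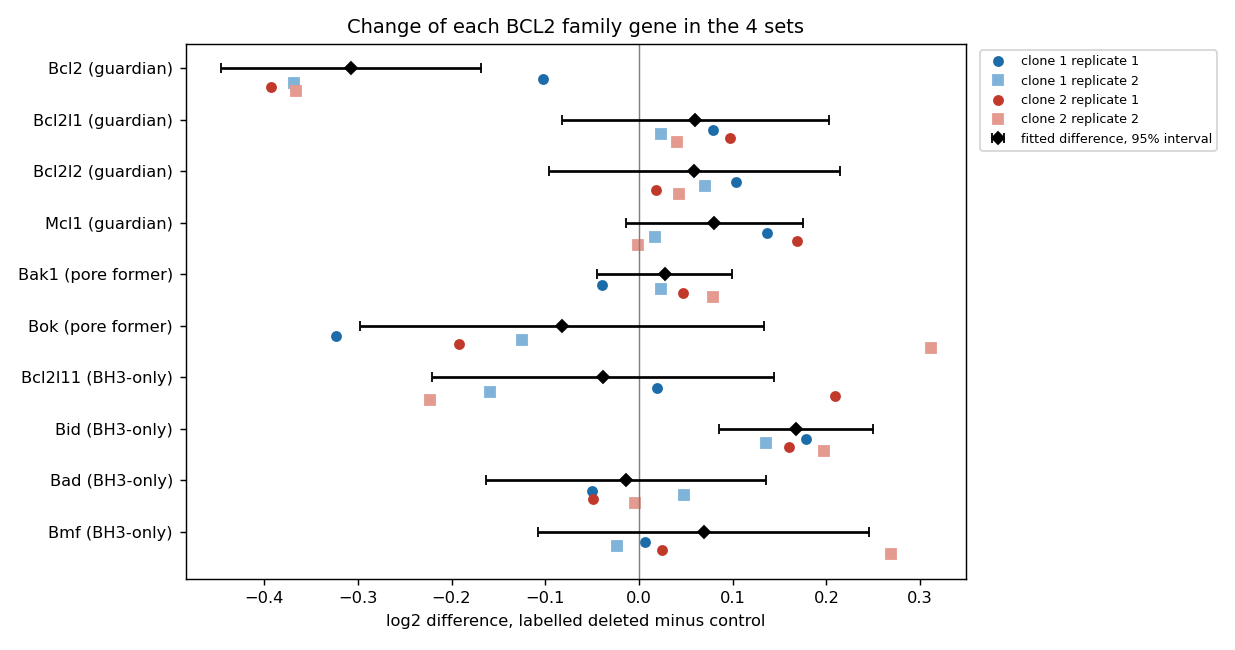
Log2 difference of each BCL2 family gene, labelled deleted minus control, with the fitted value and its 95% interval as a black diamond and bar and the 4 sets as coloured points below it. The intervals of Bcl2 and Bid exclude 0, and the bars of the other 8 genes cross it.

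Across the 8 genes other than Bcl2 and Bid, the 95% intervals spanned 0.814-fold to 1.19-fold at their widest. A change beyond those bounds lay outside the interval of each of them. Set among all genes tested, Bcl2 ranked 173 and Bid 221 of 19938 by unadjusted p, and the next member, Mcl1, ranked 1895.

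**Figure D3:**
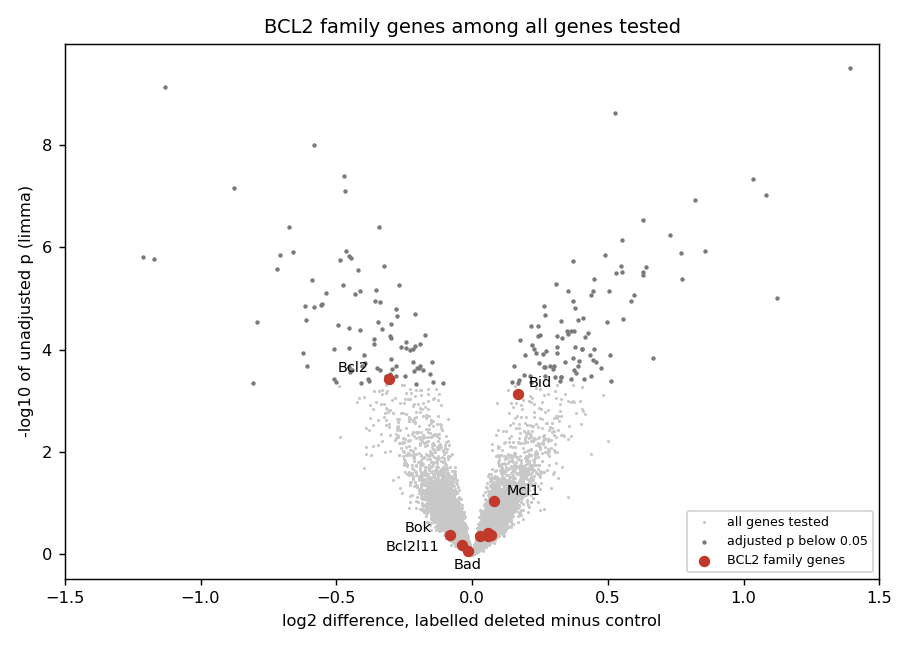
Log2 difference, labelled deleted minus control, against -log10 of the unadjusted limma p for all genes tested, with genes past an adjusted p of 0.05 in dark grey and the 10 BCL2 family genes in red; 1 gene lies outside the plotted range. Bcl2 sits at the lower edge of the dark points and Bid just under them.

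The clones differed in their starting level of Bcl2. Among control arrays clone 2 stood 1.42-fold above clone 1 (9.13 against 8.63; log2 difference 0.51 ± 0.11, SE, n = 2 arrays per clone; limma adjusted p = 0.0244), and Bcl2 was the 1 member to pass, where 3.97% of all genes did. That call ended without the sets of clone 1, replicate 1 (adjusted p = 0.295), clone 2, replicate 1 (0.138) or clone 2, replicate 2 (0.180), while the difference stayed between 0.40 and 0.62. Bcl2l1 was 1.30-fold higher in clone 2 control arrays and did not pass (limma adjusted p = 0.178). Over all 8 arrays the levels of the clones did not overlap for 2 members, Bcl2l1, higher in clone 2, and Bcl2l2, lower in clone 2, and this held for 19.7% of all genes.

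The change itself was not shown to differ between clones for any member. Taken clone by clone, 0 members passed in limma in either, where 0.181% of genes did in clone 1 and 0.682% in clone 2. Bcl2 was at -0.24 ± 0.09 (SE) in clone 1 and -0.38 ± 0.09 in clone 2 (limma adjusted p = 1.00 and 0.119), and the difference between these effects was -0.14, with a 95% interval from -0.43 to 0.14. Bid was at 0.16 ± 0.06 and 0.18 ± 0.06, and the difference was 0.02, from -0.16 to 0.20. Of the 10 members, 0 passed this test in limma, and 0 had an unadjusted p under 0.05, against 2 and 393 of all genes, the former being 0.01% of the genes tested. Under each of the 6 alternatives for this test, 0 members passed.

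No member was shown to change differently between the sets of different replicate number. With a separate effect for each replicate number, in a fit added after the data were seen, Bcl2l11 stood at 0.11 ± 0.09 (SE) in the sets of number 1 and at -0.19 ± 0.09 in those of number 2, and the difference was -0.31 ± 0.13. Bok stood at -0.26 ± 0.11 and 0.09 ± 0.11, a difference of 0.35 ± 0.15. Mcl1 stood at 0.15 ± 0.05 and 0.01 ± 0.05. None of these differences passed over all genes (limma adjusted p = 0.239 for Bcl2l11, 0.255 for Bok and 0.315 for Mcl1). Of all genes, 0% passed. Unadjusted, 2 members and 3589 of 19938 genes had a limma p under 0.05 for this difference. For the change itself, in the fit as reported, fewer genes did, 1289 of 19938. The lack of genes past the threshold therefore does not show that the change was alike at both replicate numbers. Bcl2 was at -0.25 ± 0.08 and -0.37 ± 0.08 (limma adjusted p = 0.197 and 0.0569), and Bid was at 0.17 ± 0.05 in both. The study's text speaks of 2 experiments but does not say that replicate numbers mark them.

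**Figure D4:**
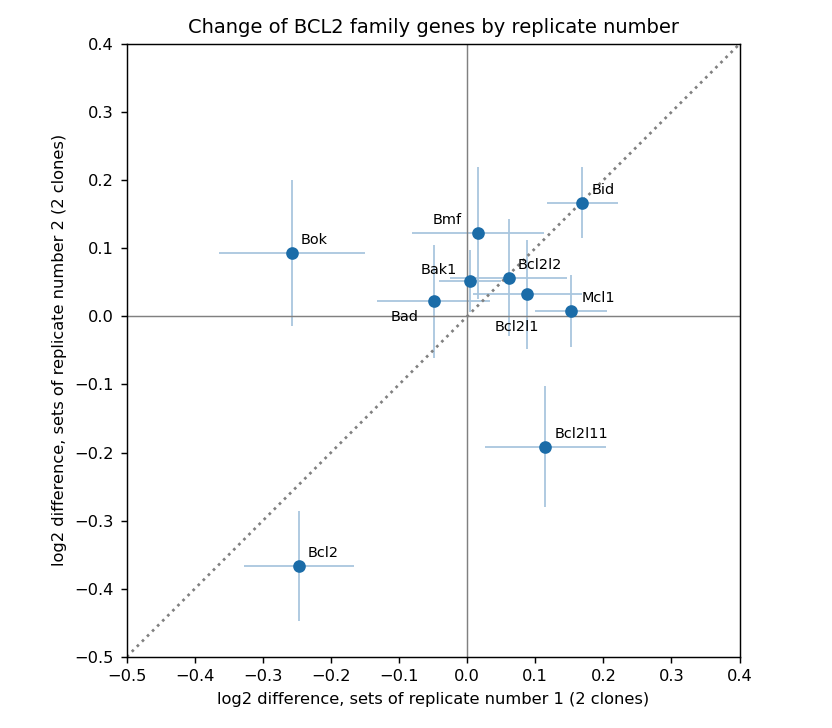
Log2 difference of each BCL2 family gene, labelled deleted minus control, in the sets of replicate number 1 (horizontal axis) and of replicate number 2 (vertical axis), with SE bars from the fit and a dotted line of equal change. Bid lies on the line and Bcl2 below it (-0.12, number 2 minus number 1), while Bok (0.35) and Bcl2l11 (-0.31) lie further off on opposite sides of it.

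Likeness of pattern was measured as the root mean square difference between profiles over the 8 arrays, each centred on its own mean. The 5 genes nearest to Bcl2 were the insulin-like growth factor receptor gene Igf1r (0.0911), Spns3 (0.105), the glycogen synthase gene Gys1 (0.105), Plppr3 (0.107) and the lysosomal autophagy gene Dram1 (0.110), where Bcl2's own root mean square deviation was 0.275. Each had a higher control level in clone 2 than in clone 1 and a log2 difference below 0, from -0.17 for Plppr3 to -0.28 for Igf1r. Both traits belong to the Bcl2 profile by which the genes were picked, so sharing them is no separate result. Dram1 was at 0.05 in clone 1, replicate 1, and none of the 5 passed singly. The nearest member to Bcl2 was Bcl2l1 (0.204), which ranked 808 of all genes. The 5 genes nearest to Bid were the scaffold protein gene Slc9a3r1 (0.0360), 1110051M20Rik (0.0426), the tyrosine phosphatase gene Ptpn12 (0.0435), Vit (0.0446) and Rcn2 (0.0449), against Bid's own deviation of 0.0949. Of these 10 genes 1 passed, Slc9a3r1 (0.17 ± 0.04, SE, n = 4 sets; limma adjusted p = 0.0447), and it did so in 6 of 17 alternative fits, its call ending without the set of clone 1, replicate 1 (0.0788), clone 1, replicate 2 (0.201) or clone 2, replicate 1 (0.297).

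Of 113 other genes listed around the family, 101 had a probe set of their own, 0 rose and 3 fell, and 98 did not pass in limma, with a median log2 difference of 0.01 against 0.00 over all genes, of which 0.471% fell and 0.481% rose. None of 13 further BCL2 family genes passed, and their median was 0.01. Bnip3, a mitochondrial gene of the hypoxia response, had the smallest p among them at -0.12 ± 0.06. Its control levels ranged widely, from 8.60 to 9.96. Bax, Bcl2a1a, Bcl2a1b and Bcl2a1d were not analysed here, for want of a probe set of their own in the annotation.

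Downstream of the pore, none of 11 apoptosome and caspase genes passed. Among them Htra2, a mitochondrial protease that opposes caspase inhibitors once released, had arrays labelled deleted (11.79 to 11.91) all below the control arrays (11.93 to 12.02), a difference of -0.12 ± 0.03 (SE, n = 4 sets; limma adjusted p = 0.0668). None of 8 caspase inhibitor (IAP family) genes passed, with Naip5 at 0.11 ± 0.08, and none of 12 genes of mitochondrial channels and dynamics, with the ADP/ATP carrier gene Slc25a4 at 0.04 ± 0.04. On the death receptor side, which reaches the mitochondrion through BID, none of 11 genes passed. Tnfrsf10b, the mouse TRAIL receptor gene, had the smallest p there, at 0.18 ± 0.07, with 0.32 and 0.26 in the sets of replicate number 1 and 0.10 and 0.04 in those of number 2. None of 17 genes that act on the stability or location of the family's proteins passed, and Ywhag, a 14-3-3 protein gene, stood at 0.10 ± 0.03.

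The 3 genes that fell lie upstream. Of 18 genes that control transcription of family members, 2 fell and 0 rose, and of 11 genes of survival cytokine signalling, 1 fell and 0 rose. Cebpa, a myeloid transcription factor gene, fell in every set, by 0.41 and 0.55 in clone 1 and by 0.71 and 0.97 in clone 2 (-0.66 ± 0.08, SE, n = 4 sets; limma adjusted p = 0.00128). That call ended in 3 of 17 alternative fits. Kit, the receptor gene for stem cell factor, fell by 0.19, 0.38, 0.45 and 0.41 in the same order (-0.36 ± 0.05; limma adjusted p = 0.00404), a call that ended in 5 of 17. As with Bcl2 and Cebpa, its smallest change was in clone 1, replicate 1. Spi1, which encodes PU.1, fell by 0.15, 0.18, 0.07 and 0.17 (-0.14 ± 0.03; limma adjusted p = 0.0465), a call that ended in 11 of 17, among them without the set of clone 1, replicate 1 (0.111) or clone 1, replicate 2 (0.430) and with robust variance moderation (0.0539). Without the pairing of sets none of the 3 passed, each having an adjusted p of 1.00. These 3 falls were known from earlier results on these arrays and are no independent support.

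A few myeloid markers passed, in both directions. Of 10 myeloid progenitor markers, 3 fell (Prtn3, Ms4a3 and Kit, the last already counted above) and 1 rose (Csf3r). Over all genes tested, 0.471% fell and 0.481% rose. The sum of the 10 markers' log2 levels ranged from 113 to 116 in control arrays and from 111 to 115 in the arrays labelled deleted, so the groups overlapped. Of 7 late neutrophil markers, 1 fell (Ngp), and their sums ranged from 44.5 to 49.9 and from 43.2 to 50.3. None of 7 macrophage, 7 mast cell and basophil, 4 erythroid, 4 megakaryocyte, 6 B cell or 6 T cell markers passed. The part of these shifts in the Bcl2 result was not tested.

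**Figure D5:**
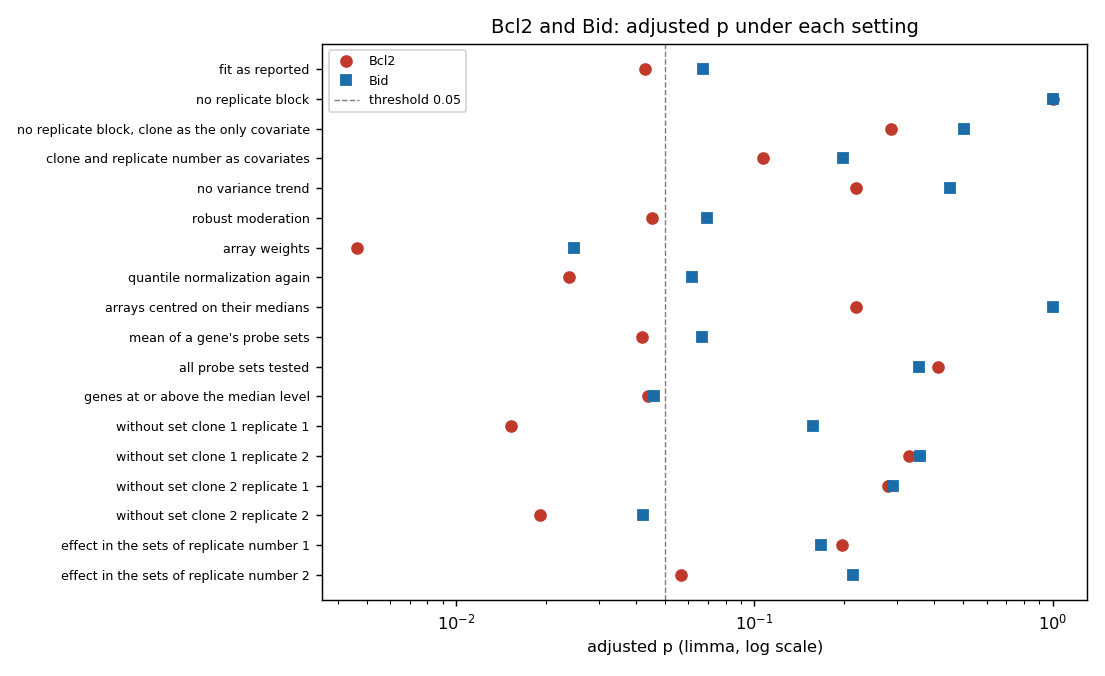
Limma adjusted p of Bcl2 (red circles) and Bid (blue squares) on a log scale in the fit as reported and under each of the 17 alternative settings, with the threshold of 0.05 dashed. Bcl2 passes in the fit as reported and in 7 alternatives, and Bid in 3.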

How the data were processed

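Total RNA from 8 mouse cell cultures was measured on Affymetrix whole-transcript arrays. The deposited values are log2 levels of 35556 probe sets made by the authors with RMA, per the submitters' processing notes. RMA as commonly defined corrects background, applies quantile normalization and summarises probes. Neither the RMA version nor the chip definition is given in the sources, and the log2 scale was read from the values (2.60 to 13.77). The number of arrays limits the precision. The supplied platform annotation listed 23410 probe sets, 21789 with 1 symbol and 1621 with several, which were left out. Of 999 genes with more than 1 probe set the brightest was used. No symbol changed through its Entrez identifier, and 91 identifiers had no match.

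Fits used limma 3.58.1 in R 4.3.3 with a variance trend, the set as a block and Benjamini-Hochberg adjustment over 19938 genes (two-sided, threshold 0.05). Within sets, control arrays and those labelled deleted deviated together from their group means (r from 0.72 to 0.82). These deviations include the difference between clones, so r cannot show whether arrays pair by replicate number within a clone. The set was made the block because the submitters' design text compares the groups through 4 sets. The 3 residual degrees of freedom were joined by 9.72 from moderation, so an SE can be smaller than the sets' own spread. P-values measure spread between 4 sets from 2 clones. On simulated data with 200 changed genes, this comparison recovered 62% of changes of 0.4 and 95% of changes of 1 (log2). Every member's fitted change was smaller than 0.4, and such changes were not simulated, so these rates do not apply to the members. Clone effects came from a fit with an effect per clone, and control levels of the clones from a fit of clone by group without the block.

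The members, pathway lists, marker lists and tests were chosen with earlier results of these data known. Named are all 10 members, Runx1 and Cbfb, in each pathway list the genes past the threshold or else the gene with the smallest p, and the 5 genes nearest in pattern to the 2 members with the smallest p. Of each marker list up to 3 of the brightest were to be named, and the other markers named were chosen after their values were seen. Alternatives covered the pairing, variance model, array weights, normalization, centring, probe sets, low levels, leaving out each set and replicate number. Promoter windows, with their coordinates, are from RefSeq (GRCm38.p6). Protein sequences were not used here.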

Additional observations from a re-analysis of the deposited data

Results flagged for a closer look

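Chance alone places a value this far from its neighbours in about 5% of independent groups of 4, and 5 of the 30 groups examined held one. The 30 groups share arrays and each mixes 2 clones, so these counts are no test of an excess. The gap to the nearest value was compared with the whole range of the group (Dixon's test). Of the 5, 4 were the highest value of their group and belonged to the set of clone 2, replicate 2. For Bmf that set was highest among control arrays (7.09, the others from 6.90 to 6.93), among arrays labelled deleted (7.36, the others from 6.89 to 6.94) and among set differences (0.27, the others from -0.02 to 0.02). For Bcl2l11 its control array was highest (7.67, the others from 7.45 to 7.48). The fifth was the Bcl2 difference of clone 1, replicate 1 (-0.10, the others from -0.39 to -0.37), and without that set the fitted Bcl2 difference was -0.38 (limma adjusted p = 0.0153). Whether these sets differ in culture or in array handling was not tested.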

How the results depend on the processing

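Bcl2 was below 0 in all 17 alternative fits and passed in 7. At a log2 difference of -0.31 it did not pass without the replicate block (adjusted p = 1.00), when clone alone was a covariate (0.288), when replicate number was added to it (0.107), without the variance trend (0.219) or with all probe sets tested (0.413), and at -0.32 it did not pass with arrays centred on their medians (0.219). By replicate number it was at -0.25 and -0.37 and did not pass, and without 1 set it lay between -0.38 and -0.28. The number of members past the threshold was 0 in each of these fits that ended the Bcl2 call, 2 with array weights and with genes at or above the median level only, and from 0 to 2 without 1 set. Unadjusted, 1 or 2 members had p under 0.05 in the fits of the pairing, trend, centring and probe sets that gave 0. Bid was above 0 in all 17. Signs turned in 3 fits for Bcl2l11, in 1 for Bok and in 1 for Bad, none past the threshold.

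The count of all genes was 190 as reported, 0 without the pairing in limma (317 unadjusted), 23 with clone alone as covariate, 78 with replicate number added, 13 without the trend, 388 with array weights, 88 with centring and 0 with all 35556 probe sets (1834 unadjusted). Leaving out clone 1, replicate 2 gave 98, and leaving out clone 2, replicate 1 gave 110, against 147 without replicate 1 of clone 1 and 418 without replicate 2 of clone 2. For the clone difference of the change it was 2, from 5 to 224 without 1 set and 0 without the trend. For clones among control arrays it was 792. Leaving out a set leaves 1 control array in a clone, so the counts of genes between clones in those fits are not given. The cause of these shifts was not tested.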
